A study of Homo sapiens with 96 samples.

Results

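RAB3GAP2 held 39 of the 4149 A-to-I editing sites listed for K562 cells, which is 0.94% of the list. K562 is a human erythroleukemic line derived from chronic myeloid leukemia. The sites were taken as all listed positions on the minus strand of chromosome 1 within the gene, which spans chr1:220148293-220272529 on GRCh38. The gene was selected on its high number of listed sites, a measured value, so the number of sites, their levels and the samples that hold them are given here as a description. The list gives, for each site and sample, an editing level from 0 to 1, which is the fraction of reads with G averaged by the authors over the tools that detected the site. A 0 in the list is treated here as a missing level, because it does not tell an unedited site from one without reads. In counts of samples and in Fisher's exact tests, such a sample counts as one without a level. In the permutation test of the mean level such values entered as 0. The read depth at a site is unknown, so no single level carries an interval. Members are numbered here from site 1 to site 39 in the direction of transcription.

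ADAR enzymes deaminate adenosine to inosine in double-stranded RNA, and inosine is read as guanosine by the cell and by reverse transcriptase. Long RNA duplexes that form when a transcript folds back on an inverted copy of itself are the best known substrates, and in such duplexes many adenosines are edited at once. Introns carry a large part of these duplexes, and an edited intron is seen in RNA-seq only while unspliced RNA or the excised intron persists. RAB3GAP2 encodes the non-catalytic subunit of the RAB3 GTPase-activating protein complex, which works with RAB3GAP1 and also promotes nucleotide exchange on RAB18. Editing in an intron of this gene does not change its coding sequence.

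The 96 samples were total RNA depleted of ribosomal RNA. In 80 of them the cells were K562 under drug, vehicle or no treatment, and 16 came from derivative lines given doxycycline or water. The largest set of libraries was a time course with imatinib, a BCR-ABL inhibitor, etoposide, a topoisomerase II poison, romidepsin, a histone deacetylase inhibitor, or DMSO, sampled at 6, 12, 24, 36 and 48 h with 1 sample per treatment and time. In a second set the cells received DMSO, etoposide, SN-38, talazoparib or cyclophosphamide for 6 h and then actinomycin D for 0 to 6 h. Further sets held alpha-amanitin for 2 or 6 h, or for 0 to 6 h after etoposide or DMSO, and actinomycin D or DMSO alone with an untreated sample. Actinomycin D and alpha-amanitin both block transcription by RNA polymerase II. In another set the cells received AZ-20, KU-60019 and NU7441 together, which inhibit the ATR, ATM and DNA-PK kinases, or DMSO for 3 h and then talazoparib or DMSO for 3 h, or SN-38, etoposide, mirin or DMSO for 6 h. The others were a wash-out of etoposide, SN-38 or DMSO, rapamycin or Torin1 at 3 and 6 h, and romidepsin at 3 and 6 h. The derivative lines were AsiSI-overexpression, Cas9_overexpression, LINE_overexpression and the CSB_shRNA_KD, MRE11A_shRNA_KD and LIG3_shRNA_KD lines, sampled at 2 to 13 days, which the study describes as stably transduced with lentiviral vectors. The sets follow internal names of the libraries that the study's supplement gives. Nearly every condition had 1 sample, and no label says that the samples that share a condition came from separate cultures.

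The names of the etoposide and romidepsin time course samples conflict between the study's tables. Of 39 sites that had been tested by Sanger sequencing in these samples, 0 had the stated level in the column of that name and 37 had it in the column of the other drug, within 0.001. These 39 tested sites are not the 39 RAB3GAP2 members. Values from these columns are given under the name in the list, and the drugs of the time course were compared with DMSO only together.

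All 39 sites were intronic and lay between chr1:220203627 and 220204477, a span of 851 bases. In GENCODE release 44 this span fell in intron 8 of the canonical transcript, which has 35 exons, and 0 exons of any gene overlapped it. The intron is 3532 bases long, from 220202375 to 220205906. The first site lay 1429 bases after exon 8, and the last lay 1252 bases before exon 9. The list classed 35 of the sites as annotated, meaning known from editing databases, and 4 as unannotated. By the study's own estimate from Sanger sequencing, part of the listed sites of both classes would fail that test.

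A search of the intron against its own reverse complement found a long inverted repeat that held the sites. A 5′ arm of 367 bases (220204134 to 220204500) was complementary to a 3′ arm of 338 bases (220203593 to 220203930) with 84.2% identity over 367 aligned columns, 29 of them mismatches. The 5′ arm held 13 of the sites and the 3′ arm held 15. The arms are separated by 203 bases (220203931 to 220204133), and the other 11 sites lay within 40 bases there. They fell in an inner stretch of 92 bases (220203979 to 220204070), which was itself complementary, with 90.2% identity, to 89 bases just before the 5′ arm (220204502 to 220204590). No listed site lay outside these 3 regions, and the 89-base stretch held 0 listed sites among its 29 adenosines.

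Listed adenosines were densest in the inner stretch, which had 26 adenosines, of which 42.3% were listed. Over all 203 bases between the arms 18.03% of 61 adenosines were listed. In the 5′ arm 8.67% of 150 adenosines were listed and in the 3′ arm 12.7% of 118. Over the whole span 12.6% of 309 adenosines were listed, and over the intron 3.55% of 1098. The authors filtered out repeats and poorly mappable regions, and which adenosines of the intron this left out was not examined. The shares therefore describe the list.

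The stretches below face each other in the structure predicted for the RNA and are shown because they hold the sites found in the most samples. Both are RNA, 5′ to 3′, read from GRCh38 on the minus strand, with listed adenosines in capitals. The first, chr1:220204190-220204216, carries sites 9 to 12, and the second, chr1:220203849-220203875, carries site 30.
Sites 9 to 12: auaccaaccugcuAAAAaagacagaga
Site 30: uuucugucuuuguuAgcagguugauau

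Of the 27 positions of the first stretch, 25 were predicted to pair with the second. Sites 9, 10 and 12 and site 30 were each predicted as paired. Site 11 was predicted as unpaired.

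The outer end of the duplex brings together 2 of the 4 unannotated members. Site 2 (unannotated) and site 3, with site 1 before them, lie in chr1:220204452-220204478, and site 39 (unannotated), the last member and the only one that lies outside the main part of the cluster at 220203651 to 220204477, lies in chr1:220203615-220203641.
Sites 1 to 3: uAauaccgaauauAAaauaauugucua
Site 39: uagacaauaauuuuAuaauugguauca

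The densest part of the cluster is shown by a pair of overlapping windows of the inner stretch. Sites 14 to 18 lie in chr1:220204022-220204048 with site 19 just beyond, and sites 17 to 24 lie in chr1:220204003-220204029.
Sites 14 to 18: acuAAgucuccucuAcucaAucccAga
Sites 17 to 24: AucccAgaAgaAAAggggaAgucAgcg

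Minimum free energy folding of the span with 300 bases on either side, 1451 bases in all, returned a long hairpin of -582.5 kcal/mol whose stem was formed by the 5′ and 3′ arms. In the arms 24 of 28 sites (85.7%) were predicted as paired, beside 212 of 240 other adenosines (88.3%). Of the 11 sites between the arms 2 (18.2%) were paired, beside 7 of 15 other adenosines of the inner stretch (46.7%) and 29 of 50 other adenosines of the 203 bases (58%). All 26 paired sites stood opposite a U, which is fixed in advance because the folding program pairs an A only with a U. The pairing of the inner stretch with its 89-base complement would cross the stem, and the folding program does not model crossing pairs, so the prediction for these 11 sites leaves that pairing out. A prediction is not a measured structure.

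**Figure D1:**
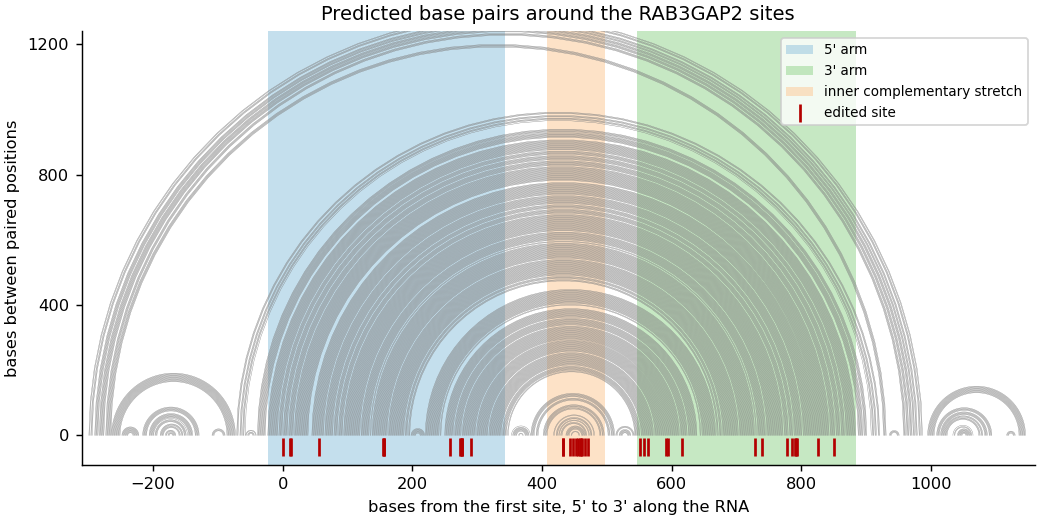
Base pairs predicted for the RNA around the RAB3GAP2 sites, drawn as arcs over the distance in bases from the first site (horizontal axis) with the number of bases between paired positions on the vertical axis, and red ticks for the 39 edited sites. The long arcs join the 5′ arm, which held 13 sites, with the 3′ arm, which held 15, and short arcs lie over the inner stretch between them, which held 11.

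No listed adenosine of the cluster had a G before it. A G preceded 0 of the 39 sites, beside 43 of 270 other adenosines of the span (15.9%) and 3.84% of all listed sites whose reference base is A. An A preceded 58.97% of the members and a U 35.9%, beside 38.9% and 30% of the other adenosines. On the 3′ side, G followed 28.2% of the members and 14.1% of the other adenosines, while over all listed sites it followed 43.98%. The span is rich in A (36.3%) and U (35.3%), and neighbouring members share their flanks. With 1 site kept of each run of sites within 10 bases, G preceded 0 and followed 6 of 15 sites.

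The sites were close together. The distance between neighbours was 1 to 141 bases with a median of 6.00, and 24 of the 38 distances (63.2%) were 10 bases or less, beside 25.2% over all listed sites. In 11 cases the neighbours were adjacent adenosines. Joined at 10 bases or less, the members formed 15 runs, of which 7 were single sites. The largest run held the 11 sites between the arms within 40 bases, and the next largest held 5 sites at 220203684 to 220203699 and 4 adjacent sites at 220204200 to 220204203.

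When sites within 100 bases on 1 strand were joined, 32 clusters in the whole list had 10 or more sites. The gaps of over 100 bases in RAB3GAP2 divided its sites, and its longest piece held 17 sites over 185 bases, or 9.19 per 100 bases. The 3 other clusters with the most sites lay in 3′ UTRs. RSPH3 had 19 sites at 14.4 per 100 bases, SMU1 had 17 at 19.3, and TEP1 had 16 at 10.7. In these clusters 62.5 to 64.7% of the sites had a level together in the sample with the most, while the longest RAB3GAP2 piece had at most 7 of its 17 sites (41.2%) in 1 sample. The time course gave 62.1% of the values of the RAB3GAP2 piece, 4.52% of those of RSPH3, 0.407% of SMU1 and 21.1% of TEP1. These 3 lie in 3′ UTRs, and among the 16 other intronic clusters with 10 or more sites the share ran from 3.23 to 63.96%, with a median of 24.5%. The highest, RB1CC1 at 63.96%, stood above RAB3GAP2 and was named after its value was seen. The share of sites found together in 1 sample was 42.9 to 81.8% in these 16 clusters.

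The tools did not detect the members equally. SPRINT detected all 39, beside 51.7% of the listed sites that have levels. RED-ML detected 61.5% of the members, beside 92.96%, and REDItools 41.03%, beside 49.7%. By combination, 14 members were detected by all 3 tools, 10 by RED-ML and SPRINT, 2 by REDItools and SPRINT, and 13 by SPRINT alone, which were 6.19% of the 210 listed sites that only SPRINT detected. In the 5′ arm 3 of 13 sites rested on SPRINT alone, in the 3′ arm 6 of 15, and between the arms 4 of 11.

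Editing levels of the members were low beside those of the whole list. There were 313 levels above 0 over the 39 sites and 96 samples, 8.36% of 3744 values, beside 5.89% over all listed sites. The levels ran from 0.0217 to 1.00 with a median of 0.154 and quartiles of 0.0833 and 0.258, whereas the median over all listed sites was 0.333. A level of 0.2 or more was reached by 41.5% of the member values and 72.1% of all listed values, and 32.3% of the member values were under 0.1, beside 11.6%. A level of 1 was recorded 7 times, at 6 sites.

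Recorded levels were lowest at the median in the 5′ arm and highest between the arms. The median was 0.0909 in the 5′ arm (quartiles 0.0712 and 0.158, 133 values), 0.182 in the 3′ arm (0.1 and 0.25, 109 values) and 0.286 between the arms (0.214 and 0.5, 71 values). Within samples the order was the same. In all 24 samples with levels in both regions the median level between the arms was above that of the 5′ arm, by 0.198 at the median, with differences from 0.0065 to 0.933. Between the arms and the 3′ arm it was higher in 18 of 23 samples and lower in 5, and the 3′ arm was above the 5′ arm in 17 of 25 samples and below it in 8. These are descriptions over sites that share reads and samples. The lowest recorded level was 0.0217 in the 5′ arm, 0.0357 in the 3′ arm and 0.0714 between the arms. Where few reads cover a site, a single edited read already gives a high level. The depth in each region is unknown, and its part in this order was not tested.

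**Figure D2:**
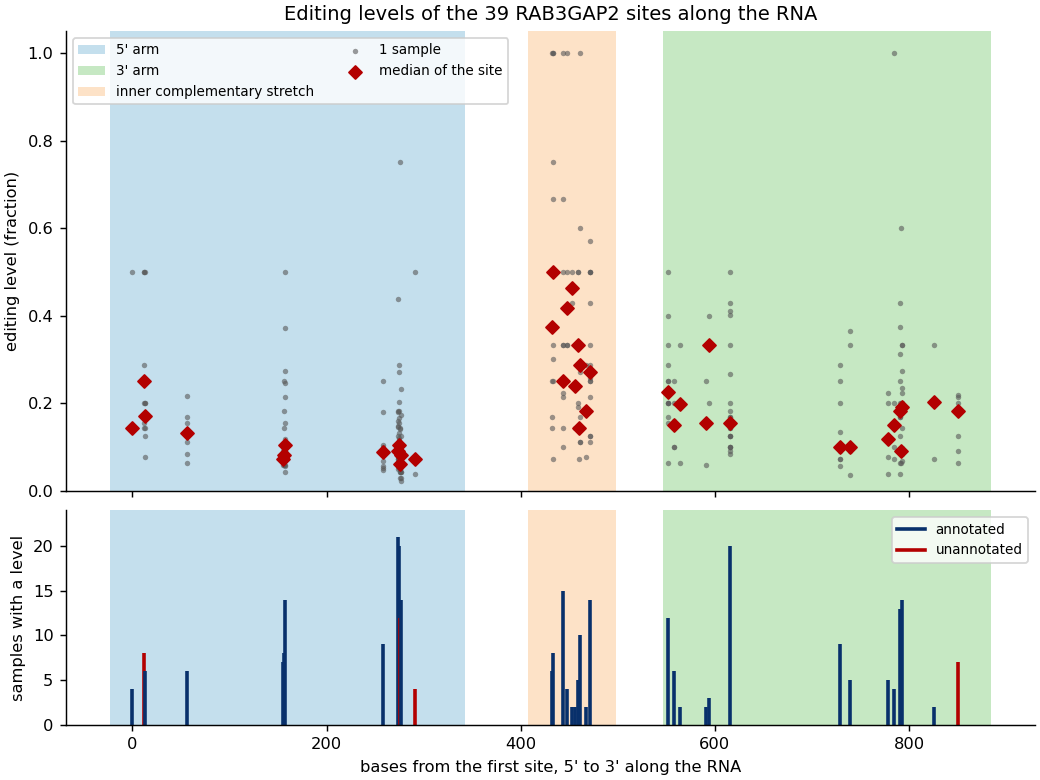
Upper panel, editing level (fraction) of each RAB3GAP2 site in each sample with a level (grey points) and the site's median (red diamonds) against distance in bases from the first site; lower panel, number of samples with a level at each site, annotated in blue and unannotated in red. The medians of the 11 sites in the shaded inner stretch between the arms lie between 0.143 and 0.5, and the tallest bars, 21 and 20 samples, stand in the 5′ and 3′ arms.

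A member was found in 2 to 21 samples with a median of 6.00, beside 3.00 over all listed sites, and 12 of the 39 (30.8%) were found in 10 or more samples, beside 14.1%. The most frequent were the adjacent sites 9 (220204203) and 10 (220204202), found in 21 and 20 samples, and site 30 (220203861), found in 20, which lie in the facing stretches shown above. Site 16 (220204034) followed with 15 samples, and sites 7 (220204320), 12 (220204200), 24 (220204006) and 37 (220203684) with 14 each. Neighbours in this order differed by at most 5 samples.

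Site 9 had levels of 0.05 to 0.438, with a median of 0.0909 (SD 0.0841, n = 21). Its highest level, 0.438, stood in alpha-amanitin at 6 h, and the next was 0.181 in the etoposide 36 h column, so 20 of the 21 levels were under 0.2. In the time course it had no level in any 6 h sample or in all but 1 of the 12 h samples, and 10 of the 12 samples at 24 to 48 h had it.

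Site 10 had levels of 0.0526 to 0.286, with a median of 0.105 (SD 0.0675, n = 20). The levels of this site over 0.2 were 0.286 in the romidepsin 48 h column, 0.27 in alpha-amanitin at 2 h and 0.202 in the etoposide 36 h column. It was found in 10 of 12 time course samples at 24 to 48 h and in 1 of 8 at 6 and 12 h.

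Site 30 had levels of 0.0833 to 0.5, with a median of 0.155 (SD 0.132, n = 20). Its 12 levels in the time course had a median of 0.125 and its 8 levels elsewhere a median of 0.3. In DMSO the levels were 0.0833 at 24 h, 0.167 at 36 h and 0.182 at 48 h, and in imatinib they were 0.1, 0.125 and 0.401. At 6 and 12 h it had no level in DMSO or imatinib. It was found in 11 of 12 time course samples at 24 to 48 h.

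Sites 16 and 24, both between the arms, had higher recorded levels. Site 16 ran from 0.1 to 1.00 with a median of 0.25 (SD 0.23, n = 15), and site 24 from 0.111 to 0.571 with a median of 0.272 (SD 0.156, n = 14). In DMSO site 16 had 0.214 at 24 h, 0.25 at 36 h and 0.143 at 48 h, and site 24 had 0.214 at 24 h and 0.429 at 48 h. Each was found in 8 of the 12 time course samples at 24 to 48 h. At 6 and 12 h site 16 was found in 2 of 8 samples and site 24 in 3 of 8, all in the etoposide and romidepsin columns.

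Among the sites found in 5 or more samples the highest medians were those of sites 15 (220204044) and 14 (220204045), adjacent and between the arms. Site 15 had a median of 0.5 (0.0714 to 1.00, SD 0.356, n = 8) and site 14 a median of 0.375 (0.143 to 1.00, SD 0.322, n = 6). Both had a level of 1 in etoposide followed by alpha-amanitin for 6 h. The lowest medians were in the 5′ arm, 0.0616 for site 11 (0.0294 to 0.75, SD 0.2, n = 12) and 0.0714 for site 5 (220204322, 0.0588 to 0.1, SD 0.0138, n = 7). Site 5 varied least, and its 7 levels lay in 3 sets of libraries.

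The unannotated members were sites 2, 11, 13 and 39. Site 11 (220204201) lies inside the run of 4 adjacent adenosines, and its highest level, 0.75, stood in the etoposide 6 h column, where it was the only member found, while its other 11 levels were at most 0.142. Site 2 (220204465) was found in 8 samples at 0.143 to 0.5, with a median of 0.25. Site 13 (220204186) was found in 4 samples, at 0.0714 in the etoposide 12 h column, 0.0385 in DMSO at 24 h, 0.0714 in DMSO at 48 h and 0.5 in the LINE_overexpression line with water. Site 39 (220203627) was found in 7 samples at 0.0625 to 0.219, 5 of them in the etoposide and romidepsin columns of the time course. Sites 11 and 39 were detected by all 3 tools, and sites 2 and 13 by RED-ML and SPRINT. At the other end of the cluster, site 1 (220204477) was found in 4 samples, at 0.143 in 3 of them and 0.5 in the other.

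Adjacent adenosines did not always appear together. Sites 9 and 10 shared 14 of the 27 samples with either (51.9%), and sites 9 and 12 shared 12 of 23 (52.2%). Of the 28 samples with any of sites 9 to 12, 21 had 2 or more of them and 5 had all 4. Over the 42 pairs of members within 10 bases the median share of samples in common was 16.7%, over 102 pairs at 11 to 100 bases it was 11.1%, and over 597 pairs at over 100 bases it was 12.5%. The largest share, 54.5%, belonged to sites 7 and 10, which are 118 bases apart in the 5′ arm and shared 12 of 22 samples. Of all 741 pairs, 167 (22.5%) were never found in the same sample.

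Sites in opposite arms were found together about as often as sites of the same arm. The median share of samples in common was 13.3% over 195 pairs in opposite arms, 15.6% over 162 pairs of the same arm more than 10 bases apart, and 10.00% over 308 pairs of 1 site in an arm and 1 between the arms. Of the 20 samples with site 30, 15 (75%) also had one of the facing sites 9 to 12, and these were 53.6% of the 28 samples with sites 9 to 12. Of the 41 samples with a site in either arm, 25 had sites in both, and 22 had sites in all 3 regions. Pairs of members share libraries and depth, so these shares carry no test.

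The members were concentrated in a minority of the samples. No member had a level in 50 of the 96 samples, 1 member in 15, 2 to 9 members in 16 and 10 or more in 15. The highest number was 19, in the romidepsin 24 h column, followed by 18 in DMSO at 24 h, 17 in the etoposide 48 h column, and 15 each in DMSO and imatinib at 48 h. Where a sample had 1 member, its level was 0.2 to 0.75 with a median of 0.429. In samples with 10 or more members the median level was 0.143, and 37.7% of the 207 values reached 0.2. Samples with 10 or more members had 182 to 633 listed sites with a level, and samples without members had 30 to 382.

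**Figure D3:**
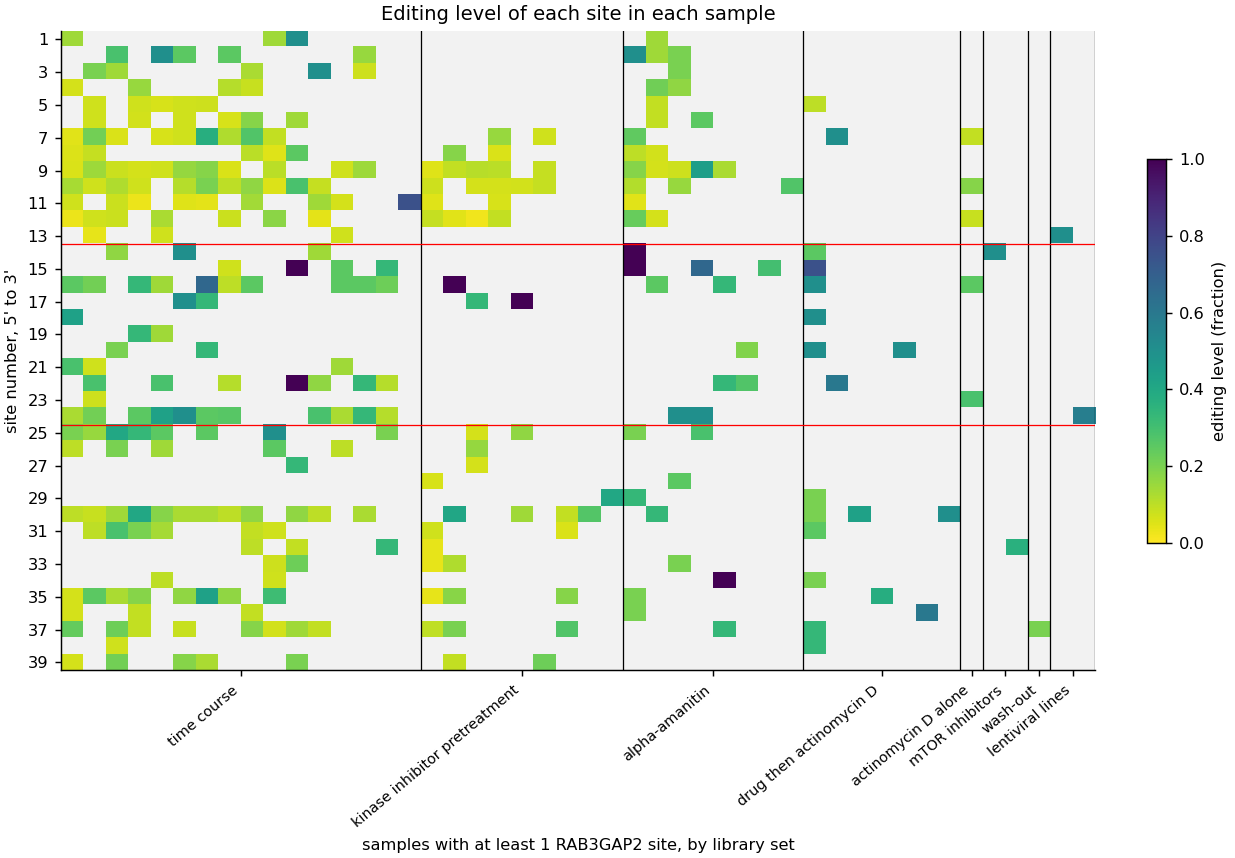
Editing level (colour, fraction) of each RAB3GAP2 site (rows, numbered 5′ to 3′) in the 46 samples with at least 1 of them (columns, by library set and then by number of sites), with red lines around the 11 sites between the arms; grey means no level recorded. The time course holds 193 of the 313 values, and 6 of the 7 levels of 1 stand in rows 14 to 24, the other in row 34.

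By set of libraries, the time course held 193 of the 313 member values (61.7%), beside 28.02% of the values of all listed sites. In it 16 of the 20 samples had a member, with a median of 12.5 members, and 37 of the 39 sites were found at least once. The set with kinase inhibitors held 14.7% of the member values and 14.3% of all values, with members in 9 of 10 samples. The alpha-amanitin set held 14.4% and 10.4%, with members in 8 of 11 samples. In contrast, samples with a drug and then actinomycin D held 6.07% of the member values and 25.1% of all values, and the wash-out set 0.319% and 5.43%. The 4 samples of the AsiSI line and the 2 romidepsin samples outside the time course had 0 members, and the 12 samples of the lentiviral lines had 2 values in all.

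**Figure D4:**
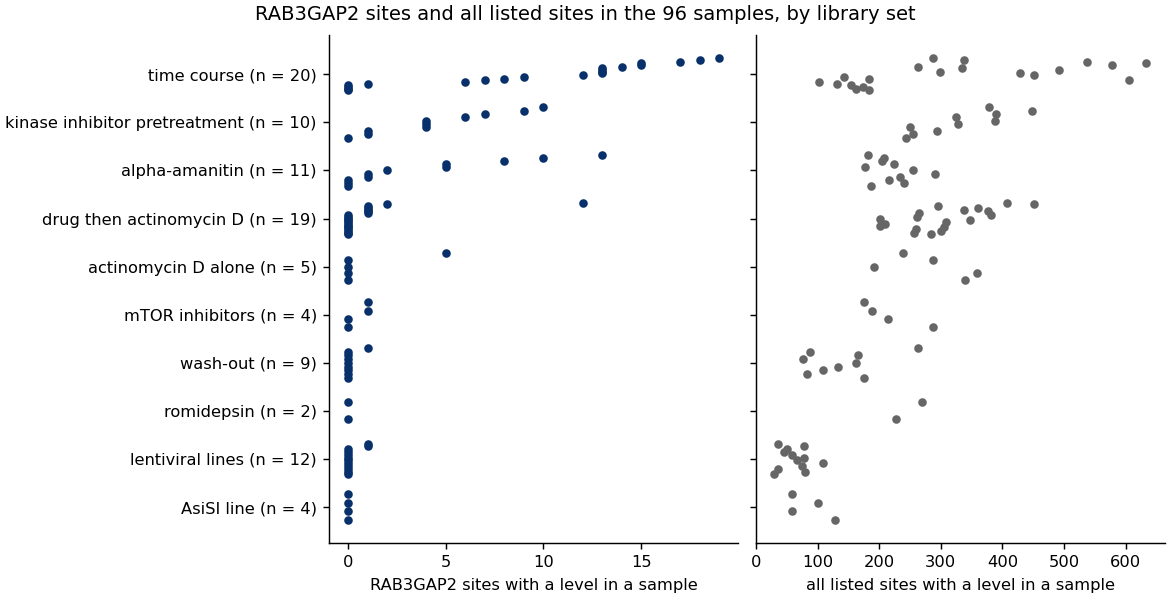
Number of RAB3GAP2 sites with a level in each sample (left) and number of all listed sites with a level in the same samples (right), each point 1 sample, by library set with its number of samples. RAB3GAP2 sites reach 19 in the time course, and all but 1 of the 19 samples with a drug and then actinomycin D have 2 or fewer, although these samples have 202 to 452 listed sites.

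In the alpha-amanitin set the members were most frequent after etoposide. After 6 h of etoposide and then alpha-amanitin for 0, 2, 4 and 6 h, 5, 10, 8 and 13 members had a level. After DMSO at the same times the numbers were 1, 0, 0 and 0, and the groups of 4 did not overlap. The samples of this set without a first drug had 5 members after alpha-amanitin for 6 h, 1 after alpha-amanitin for 2 h and 2 after DMSO for 2 h, so 1 of them reached the lowest etoposide sample. The etoposide samples had fewer listed sites with a level, 177, 207, 205 and 182, than the DMSO samples, with 291, 240, 186 and 216, except at 4 h. In the actinomycin D set the numbers overlapped, and etoposide samples had 0, 1, 12, 0 and 0 members at 0, 1, 2, 4 and 6 h and DMSO samples had 0, 1, 0, 1 and 0. The single sample with 12 members, etoposide and then 2 h of actinomycin D, had 42973390 reads, the most in its set. The sample with the next most reads, DMSO and then 4 h of actinomycin D, had 42711068 and 1 member. With kinase inhibitors absent, 6 h of mirin gave 10 members, etoposide 7, SN-38 4 and DMSO 4. With kinase inhibitors, SN-38 for 6 h gave 9 members, mirin 6 and etoposide 4. In the wash-out set the etoposide and DMSO samples had 0 members at 0, 2 and 6 h, and SN-38 had 1, 0 and 0. No test was made on these numbers of members.

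In the time course members became frequent from 24 h. Their number per sample was 0 to 6 at 6 h, 0 to 9 at 12 h, 13 to 19 at 24 h, 7 to 13 at 36 h and 12 to 17 at 48 h, so that the samples at 24 h did not overlap those at 6 and 12 h. At 6 and 12 h DMSO and imatinib had 0 members, the etoposide columns had 1 and 8, and the romidepsin columns 6 and 9. All listed sites also became more frequent, from 102 to 183 per sample at 6 h and 142 to 184 at 12 h to 263 to 428 at 24 h. At 48 h they were 451 to 633. Their numbers at 24 h did not overlap those at 6 and 12 h either. The members were 1.19% of the listed sites with a level at 6 h, 2.65% at 12 h, 4.87% at 24 h, 2.66% at 36 h and 2.68% at 48 h. In single samples this share overlapped, with 0 to 5.88% at 6 h, 0 to 6.34% at 12 h and 3.04 to 6.62% at 24 h. The romidepsin columns had the highest share at each of these times. The median level of the members was 0.222 at 6 h over 7 values, 0.125 at 12 h, 0.1 at 24 h, 0.15 at 36 h and 0.154 at 48 h. At 24 h 30 of the 39 sites were found, and 6 of them in all 4 samples.

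**Figure D5:**
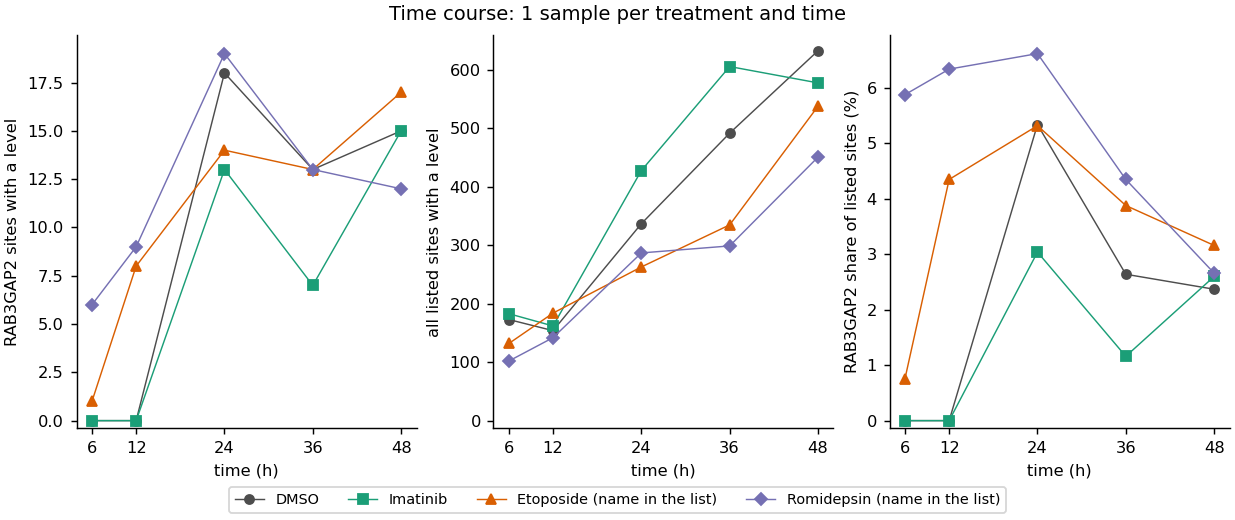
Number of RAB3GAP2 sites with a level (left), number of all listed sites with a level (middle) and the former as a percentage of the latter (right) against time in h, with 1 sample per treatment and time; etoposide and romidepsin carry the names of the list. The RAB3GAP2 number is 0 to 9 at 6 and 12 h and 7 to 19 from 24 h, and its share of listed sites is highest at 24 h in each of the 4 treatments.

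Late and early samples of the time course were compared site by site, 8 samples at 36 and 48 h with 8 at 6 and 12 h, by Fisher's exact test (two-sided) on the samples with and without a level, over all 1133 listed sites found in at least 2 of them. After Benjamini-Hochberg adjustment 0% of the listed sites passed 0.05, and 0 of the 31 members tested did. At an unadjusted p under 0.05 there were 125 listed sites (11%) and 5 members (16.1%), all found in more late samples. A site found in 4 or fewer of these samples could not reach this, since 4 against 0 gave 0.0769 (Fisher's exact test). Only 293 of the listed sites and 11 of the members were found in at least 5. These held all 125 and all 5, so both shares also reflect how often sites were found. Of the 31 members 28 were found in a larger share of late samples (90.3%), beside 78.5% of all sites tested, and the median difference in share was 25 percentage points for the members and for all sites. The 5 members were sites 7, 9, 10, 30 and 31. Site 30 was found in 7 of 8 late samples and 1 of 8 early samples (exact p = 0.0101, adjusted p = 0.182). The call of site 30 depended on the setting. It passed over sites found in 5 or more samples (adjusted p = 0.047, Fisher's exact test). Its unadjusted p was the same there, and the adjustment was over 293 sites in place of 1133. Site 30 met this filter through its 7 late samples, so this pass is no separate support. Site 30 also passed by an exact permutation test of the mean level, with an absent level entered as 0 (adjusted p = 0.0406). With treatment as a block it did not pass (exact adjusted p = 0.342). Sites 9 and 10 were each found in 6 late and 1 early samples (exact p = 0.0406, adjusted p = 0.368), and sites 7 and 31 (220203748) in 5 and 0 (exact p = 0.0256, adjusted p = 0.259). The number of listed sites rose over the same hours, from 102 to 184 in the early samples to 299 to 633 in the late ones, and its part in these differences was not tested.

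The 15 samples with any drug of the time course were compared with the 5 DMSO samples in the same way. Of 1308 sites tested 0% passed after adjustment and 1.3% had an unadjusted p under 0.05, and of 33 members 0 passed either way. The drug samples had 0 to 19 members with a median of 12.00 and the DMSO samples 0 to 18 with a median of 13.00, so the groups overlapped almost wholly. Of the members 15 were found in a larger share of drug samples, 15 in a smaller share and 3 in an equal share.

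Transcription inhibitors were examined because intronic RNA is short-lived and is no longer made when transcription stops. The 24 samples with actinomycin D or alpha-amanitin for more than 0 h were compared with the 11 untreated, vehicle and 0 h samples of the same sets. Of 1693 sites 13 passed after adjustment (0.768%), 11 of them found in fewer inhibitor samples, and 140 (8.27%) had an unadjusted p under 0.05. Of 22 members 0 passed, and 0 had an unadjusted p under 0.05, with a smallest adjusted p of 0.835 (Fisher's exact test). Most of these members were found in only 2 of the samples compared, too few to reach 0.05 whichever group held them. Only 1 member was found in at least 5 of these samples, so the test could hardly call a member. Inhibitor samples had 0 to 13 members and the other samples 0 to 5, and the median of both was 0. The members were 0.831% of the listed sites with a level under inhibitor and 0.463% without. These shares pool both inhibitors and all first drugs. The highest numbers under inhibitor, 13, 12, 10 and 8 members, were all in samples given etoposide first. The other inhibitor samples had 0 to 5.

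SN-38, a topoisomerase I poison, or etoposide without a further inhibitor (11 samples outside the time course) was compared with DMSO (6 samples of the same sets). Of 696 sites 0% passed after adjustment and 4.02% had an unadjusted p under 0.05. Only 6 members could be tested, and 0 of them passed by either rule. Most of these were found in only 2 of the samples compared, too few to reach 0.05 whichever group held them. The drug samples had 0 to 7 members and the DMSO samples 0 to 4.

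The 16 samples of derivative lines were compared with the 80 other samples. Of 3353 sites 12 passed after adjustment (0.358%), all found in fewer samples of the derivative lines, and 4.41% had an unadjusted p under 0.05. All 39 members were tested and 0 passed. Even the most frequent member, site 9, was absent from all 16 samples and did not pass. Rarer members therefore could not pass by being found in fewer of these samples. At an unadjusted p under 0.05 there were 3 members (7.69%), sites 9, 10 and 30, each found in 0 of 16 samples of the derivative lines and in 21, 20 and 20 of the others (exact p = 0.0191, 0.0206 and 0.0206, adjusted p = 0.632 for each). The samples of the derivative lines had 30 to 129 listed sites with a level and the others 76 to 633, and line, library set and number of sites found cannot be told apart here. Between doxycycline and water in these lines, 8 samples each, 0% of 192 sites passed after adjustment and 0% had an unadjusted p under 0.05. No member was found in 2 of these 16 samples, so 0 members could be tested. The values were 0.571 at site 24 in the MRE11A_shRNA_KD line with doxycycline at 5 days and 0.5 at site 13 in the LINE_overexpression line with water at 2 days.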

How the data were processed

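The data were 1 table of editing sites. Per the methods, the authors trimmed reads with the fastx toolkit, aligned them to GRCh38 with TopHat2 2.1.1, used Picard 2.0.1 and SAMtools 1.9, predicted sites in every sample by SPRINT, REDItools and RED-ML, filtered out variants, repeats and poorly mappable regions, and kept sites found in at least 2 of 130 samples with a maximum level above 0.2, so the list cannot show what these steps removed. The deposited values are editing levels as a fraction. Of the sample columns 96 were used, and 34 of earlier publications were not. Reads per sample, from the supplement, were 17981458 to 46272413. The untreated sample was matched by its group name. Samples were grouped by their labels.

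Members were matched by position. GENCODE release 44 gave exons (the study used an earlier release). Complementary stretches were found with blastn 2.17.0 (word size 7, expect threshold 1e-05) and folding was done with RNAfold 2.7.2. Contrasts used Fisher's exact test per site, two-sided, over all listed sites found in at least 2 of the samples compared, with Benjamini-Hochberg adjustment and a threshold of 0.05, tested on simulated data. P-values measure only the spread between these samples, which may be technical. Members, lists and tests were chosen with earlier results of these data known. Named sites were the 5 found in the most samples with ties, the 2 highest and 2 lowest medians among sites in at least 5 samples, the unannotated, first, last and outlying members, the adjacent pairs, of which the main ones are described, members called in a contrast, and the 3 other clusters with the most sites. Sites 17 to 19, 23 and 31 were also named after their values were seen. Alternatives were other definitions of a found site, minimum numbers of samples, tests, blocks, flanks and samples left out. Computation used pandas 2.3.3, pysam 0.24.0, scipy 1.17.1 and numpy 2.4.6 under Python 3.11.15.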

Additional observations from a re-analysis of the deposited data

Results flagged for a closer look

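The number of RAB3GAP2 sites per sample was examined for samples that stand apart in the 11 groups of 4 to 10 samples formed by the contrasts and library sets, of which 10 had any spread. In 5 of them the highest sample stood apart by Dixon's criterion. Its rate of about 1 in 20 groups flagged by chance assumes values without many ties. That rate does not apply to counts that are mostly 0. In the set with actinomycin D or DMSO alone, 1 DMSO sample at 6 h had 5 sites and the other 4 samples had 0. Among the 6 DMSO samples compared with SN-38 or etoposide, the highest had 4 sites and the next had 1. In the wash-out set, among the doxycycline samples and among the water samples of the derivative lines, 1 sample had 1 site and all others had 0. In groups that are otherwise at 0, any sample with a site is set apart.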

How the results depend on the processing

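With the level counted as found from 0.2, the listed sites called were 4 for transcription inhibitors (13 as reported), 4 for late against early samples (0 as reported) and 3 for derivative lines (12 as reported), and the member values fell from 313 to 130. With sites found in at least 5 samples these counts were 27, 63 and 19. By a permutation test of the mean level they were 7 for inhibitors and 40 for late against early samples. In the late against early comparison 1 RAB3GAP2 site, site 30, was called under both of the last settings. Without the set with actinomycin D alone 2 sites were called for inhibitors, and without the set with a drug and then actinomycin D 0 were called, so the count of 13 rested on these sets. The causes were not tested, beyond the smaller number of sites or samples in some of these settings. With the line and day as replicate block, 0 sites were called for doxycycline against water, as in the unpaired fit, and the block changed no other call there. Without each DMSO replicate in turn 0 sites were called for the drugs of the time course. No RAB3GAP2 site was called in the other comparisons under any alternative that was run. The median level was 0.286 with levels from 0.2 counted and 0.154 without samples under 30000000 reads, and 26 sites were predicted as paired with 1000 bases on either side, as with 300. The depth at each site is unknown, so an absent level is not an unedited site.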
